A study of Mus musculus with 10 samples.

Results

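The leukocyte adhesion molecules of endothelium are surface proteins by which a vessel wall holds and passes white blood cells, and 10 of their genes were examined among the 55401 genes counted in meningeal lymphatic endothelial cells (LECs). The genes were Icam1, Icam2, Vcam1, Madcam1, Sele, Selp, Cd34, Mcam, Alcam and Cd99l2, each taken by its symbol in the count table and given below with its Ensembl identifier and its position in RefSeq on GRCm38.p6. RNA was sequenced in 5 naive replicates and 5 replicates after 6 days of sub-chronic variable stress (SCVS), all from female C57BL/6 mice (C57BL/6J in the study's methods) 3 months of age. Each replicate was a pool of cells from 3 to 4 meninges, digested with collagenase VIII, DNase I and actinomycin D and sorted as CD45-CD31+podoplanin+, so that both groups shared the digestion, the transcription inhibitor and the gate. The p-values below measure the spread between these pools.

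Leukocytes leave the flowing blood in steps. Selectins catch and slow the cell, immunoglobulin-type molecules such as ICAM-1 and VCAM-1 bind its integrins and arrest it, and junctional molecules such as CD99L2 take part in its passage between endothelial cells. Cells that enter a lymphatic vessel come from the tissue and are not caught from a flow. E-selectin, VCAM-1 and ICAM-1 are induced in endothelium by inflammatory cytokines through NF-kappaB, whereas ICAM-2 and CD34 are present in resting endothelium.

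The RefSeq promoter table, built on GRCm38.p6, held 8 of the 10 genes, each as 300 bases from 250 before to 50 after the start that the table uses for it. For Sele that start lies inside the gene span given below, and for Cd99l2 it lies just inside the end of the span, since the spans take in other transcripts. Vcam1 and Icam2 had no entry. Both strands were searched for 3 motifs, namely the NF-kappaB decamer by its consensus, TATAAA as a TATA box, and CCGGAA as the core of sites bound by ETS factors. No match in these genes overlapped another. The NF-kappaB decamer was searched only as GGGRNNYYCC, where R is A or G, Y is C or T and N is any base. In this form it lay in 8.46% of all 32841 promoters and in 1 of the 8, Madcam1. Sites that depart from this form were not searched. A window without a match, such as that of Icam1 or Sele, may therefore still hold an NF-kappaB site. TATAAA lay in 13.6% of all promoters and in 2 of the 8, Icam1 and Sele, and CCGGAA in 14.9% of all and in 1 of the 8, Icam1. The 3 windows with a match are printed in lower case from 5′ to 3′ in the direction of the gene, with the matches in capitals, because they are the 3 that differ from the others by these letters. They belong to 1 gene read in most replicates and to 2 genes at or near 0.
Icam1 (chr9:21015690-21015989, plus strand): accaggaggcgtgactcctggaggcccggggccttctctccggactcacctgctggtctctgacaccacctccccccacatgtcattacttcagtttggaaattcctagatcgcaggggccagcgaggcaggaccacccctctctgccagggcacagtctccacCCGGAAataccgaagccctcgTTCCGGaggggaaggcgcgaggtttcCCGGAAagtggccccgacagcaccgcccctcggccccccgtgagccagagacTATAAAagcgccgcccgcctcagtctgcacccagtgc
Sele (chr1:164047984-164048283, plus strand): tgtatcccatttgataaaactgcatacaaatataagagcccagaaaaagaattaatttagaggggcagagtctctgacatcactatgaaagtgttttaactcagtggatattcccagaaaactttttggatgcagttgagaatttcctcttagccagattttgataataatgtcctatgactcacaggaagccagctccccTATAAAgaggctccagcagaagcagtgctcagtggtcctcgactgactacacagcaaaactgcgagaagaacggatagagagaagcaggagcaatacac
Madcam1 (chr10:79664309-79664608, plus strand): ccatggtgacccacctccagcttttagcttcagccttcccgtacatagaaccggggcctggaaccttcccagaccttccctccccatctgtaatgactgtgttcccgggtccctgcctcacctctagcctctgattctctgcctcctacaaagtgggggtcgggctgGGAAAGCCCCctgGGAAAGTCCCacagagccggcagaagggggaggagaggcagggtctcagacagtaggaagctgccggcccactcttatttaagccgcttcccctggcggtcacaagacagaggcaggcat
Relative to the annotated start, the CCGGAA matches of Icam1 began at -86, at -65 on the minus strand and at -39. Its TATAAA began at 14, after that start, and is counted here by its letters only, not as the TATA box of that start. The TATAAA of Sele began at -49. The decamers of Madcam1 were on the minus strand and began at -83 and -70. The windows of Selp, Cd34, Mcam, Alcam and Cd99l2 held none of the 3 sets of letters, which is a description of these windows only.

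Total counts ranged from 9984743 to 14094155 per replicate, and levels are given as counts per 1000000 of that total (CPM). A count of 0 allowed a level of up to 0.213 to 0.301 CPM, taken as 3 counts of each total, and this limit covers counting error only. The sorted population was checked against markers of the cell types that the gate could hold. The 8 blood endothelial markers, led by Plvap, exceeded the 9 lymphatic markers, led by Mmrn1, in summed CPM in all 10 replicates, by 1.60 to 105.6 times. The lymphatic sum was 74.4, 2929, 1068, 1367 and 195.6 CPM in naive 1 to 5 and 1421, 1176, 3243, 3193 and 470.6 CPM in SCVS 1 to 5. In naive 1, Prox1 and Pdpn, the lymphatic transcription factor and the podoplanin used for sorting, were at 0, and Lyve1 had 2 counts. The name LEC is therefore used here for the gate, not for a population whose lymphatic markers led.

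Naive 5 stood apart in endothelial RNA. The summed level of 10 pan-endothelial genes, led by Emcn, was 885.1 CPM there and 4982 to 10550 CPM in the other 9 replicates, and the 10 adhesion molecules together reached 90.6 CPM against 757.5 to 1947 CPM. Those values were 10.9% and 6.01% of the medians of the other 9. The summed level of 8 mural genes, led by the pericyte gene Rgs5, was 5078 CPM in naive 5 and ranged from 430.0 to 7681 CPM over all replicates. In such bulk RNA, fewer cells of a type and less RNA per cell cannot be told apart. The members' fold changes and the counts of the gene lists are therefore given with all replicates and without naive 5.

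**Figure D1:**
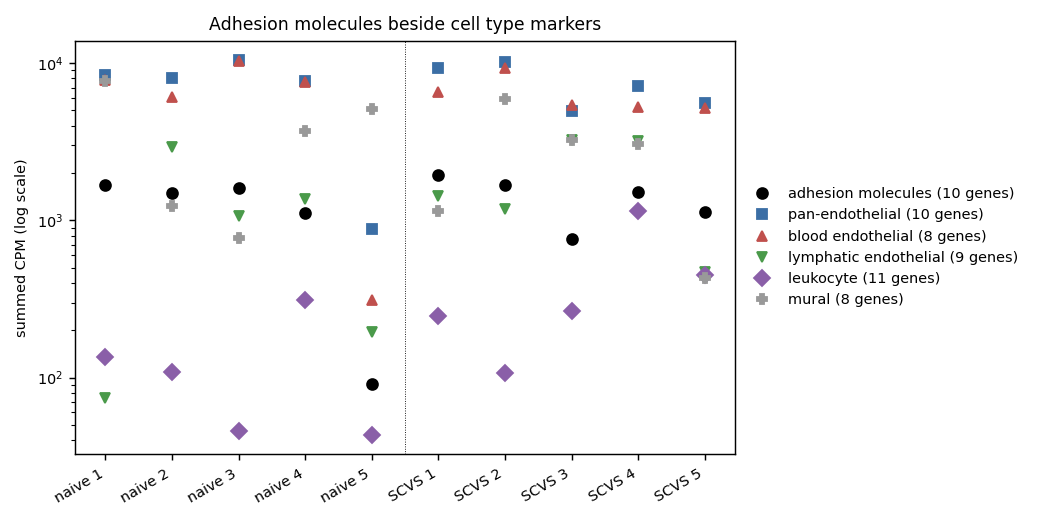
Summed CPM (log scale) of the 10 adhesion molecules and of 5 marker lists in each of the 10 replicates, one symbol per list. Naive 5 has the lowest sum of adhesion molecules (90.6 CPM) and of pan-endothelial genes (885.1 CPM), and naive 1 has the lowest lymphatic sum (74.4 CPM).

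Of the adhesion molecules, 8 passed the filter of more than 5 counts in at least 3 replicates, which 14815 genes passed. Madcam1 and Sele did not. No member passed the threshold after stress in the test across all genes, edgeR's quasi-likelihood test with an adjusted p under 0.1, in which 0.00% of the tested genes were called. At an unadjusted p under 0.05 the same test held 460 genes, or 3.10% of those tested, and 0 of the 8 members. DESeq2 called 0.769% of the tested genes and none of the members. None of the 8 members had an unadjusted p under 0.05 in DESeq2 or limma voom, where 4.46% and 4.97% of the tested genes did. Vcam1, a ligand for leukocyte integrins, had the lowest fitted log2 fold change of the members, and Selp, a selectin gene, the highest. Fitted log2 fold changes were above 0 for 5 members and below 0 for 3, with a median of 0.38 beside -0.03 for all tested genes. Without naive 5 they were above 0 for 4 and below 0 for 4, with medians of 0.07 and 0.02.

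Across all replicates, 0.628% of the tested genes and 0 of the 8 members had groups that did not overlap in CPM. With naive 5 left out, SCVS lay below every naive replicate in 0.533% of the tested genes and in 1 member, Vcam1. It lay above every naive replicate in 0.796% of the tested genes and in none of the members. Naive 5 was singled out after its levels were seen, so the separation of Vcam1 without it is a description.

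**Figure D2:**
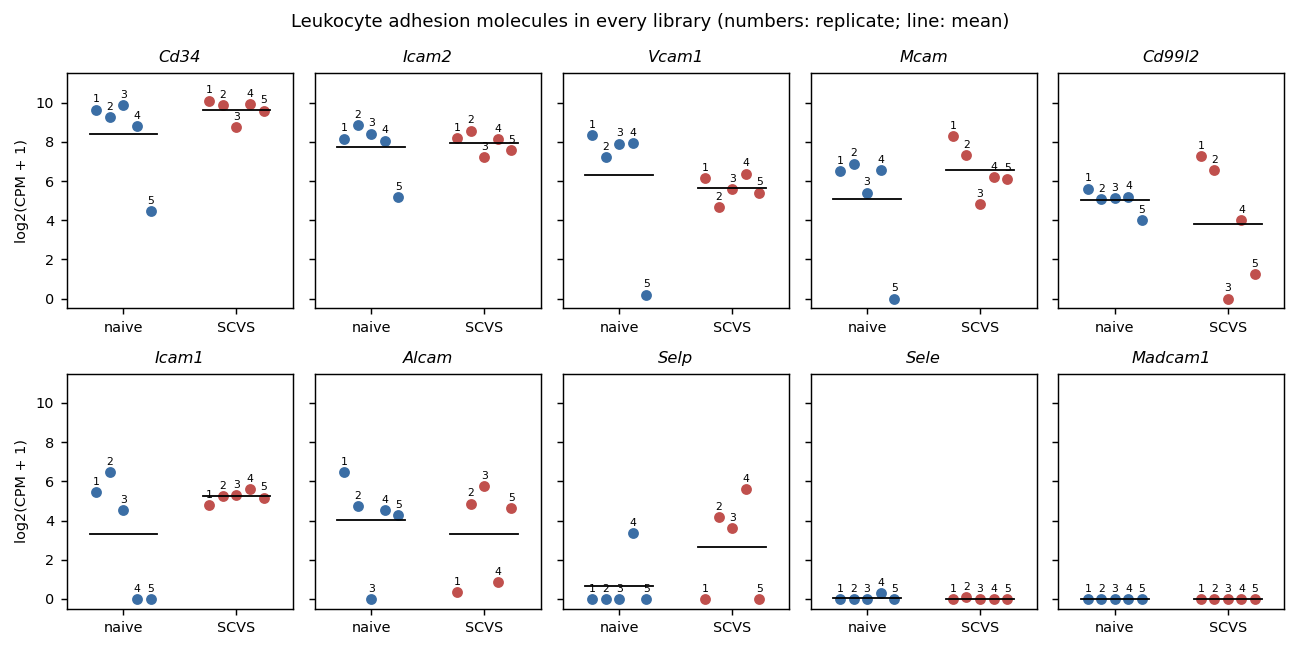
Level of each of the 10 adhesion molecules, as log2(CPM + 1), in the 5 naive and 5 SCVS replicates, numbered by replicate, with a line at the mean of these log2 values. Naive 5 is low for Cd34, Icam2, Vcam1 and Mcam, the other 4 naive replicates lie above all SCVS replicates for Vcam1, and Sele and Madcam1 lie at or near 0 throughout.

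Vcam1 (ENSMUSG00000027962, chr3:116110020-116129688, minus strand) encodes VCAM-1, the ligand of the integrin alpha4beta1 on lymphocytes and monocytes. Its level was 320.9, 149.6, 238.9, 241.4 and 0.150 CPM in naive 1 to 5, and 71.0, 24.3, 47.6, 82.3 and 41.4 CPM in SCVS 1 to 5. The 5 SCVS replicates lay below the lowest of naive 1 to 4, whereas naive 5, with 2 counts, lay below them all. Mean levels were 190.2 ± 122.3 CPM (SD, n = 5) in naive and 53.3 ± 23.3 CPM (SD, n = 5) in SCVS, 3.57-fold lower, and 4.46-fold lower against the 237.7 ± 70.0 CPM of naive 1 to 4. The fitted log2 fold change was -1.86 (SE 1.05), and the gene was not called by edgeR (adjusted p = 1; unadjusted p = 0.101). Without naive 5 the change was -2.19 (SE 0.43) (unadjusted p = 0.000418), where 4.24% of the tested genes had an unadjusted p under 0.05, and edgeR's adjusted p of 0.906 still missed the threshold. DESeq2 without naive 5 called it, at -2.17 (SE 0.47) with an adjusted p of 0.00127, where it called 1.51% of the genes tested. The focus on naive 5, and the DESeq2 fit without it, were chosen after the data were seen. Naive 5 was singled out by sums that include the members, and it had the lowest Vcam1 level. Leaving it out thus raises the naive Vcam1 level by choice, and the p-values without it are given as a description. Without naive 5, the pan-endothelial genes had log2 fold changes below 0 in 9 of 10, with a median of -0.28. Of the 8 blood endothelial markers 7 were below 0 in that fit, with a median of -0.40, and Vwf, Slco1a4 and Cldn5 had an unadjusted p under 0.05. Of the 7 tested mural genes 6 were below 0, with a median of -2.12, and Tagln and Acta2 had an unadjusted p under 0.05, as did Col1a1 of the fibroblast and arachnoid genes, of which 5 of 8 were below 0 with a median of -0.73. The part of these cell types in the Vcam1 level was not tested. In limma voom with all replicates, the log2 fold change of Vcam1 was -0.13 (SE 1.85, adjusted p = 0.999).

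Relative to the summed count of the 10 pan-endothelial genes, led by Emcn, the order was similar. That sum is no measure of lymphatic content, since in naive 1 it was 8359 CPM beside a lymphatic sum of 74.4 CPM. Vcam1 was 3.84%, 1.85%, 2.27%, 3.14% and 0.0170% of the summed count of the 10 pan-endothelial genes in naive 1 to 5, and 0.756%, 0.237%, 0.956%, 1.14% and 0.737% in SCVS 1 to 5. The groups again separated with the exception of naive 5, in which Vcam1 was low even against the other endothelial genes. The count of Vcam1 per count of Icam2 was 1.12, 0.323, 0.700, 0.907 and 0.00426 in naive 1 to 5 and 0.247, 0.0641, 0.320, 0.295 and 0.215 in SCVS 1 to 5, so that naive 2 and SCVS 3 were nearly equal. Scaled to the pan-endothelial genes, the fitted change was -1.54 (SE 1.02) with all replicates and -1.86 (SE 0.47) without naive 5, with edgeR's adjusted p at 0.776 and 0.829. Under that scaling 4 members lay above 0 and 4 below, where 24.5% of all tested genes lay above 0 and their median was -0.98. Without naive 5 it was 5 and 3, where 66.5% of all tested genes lay above 0 and their median was 0.34.

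**Figure D3:**
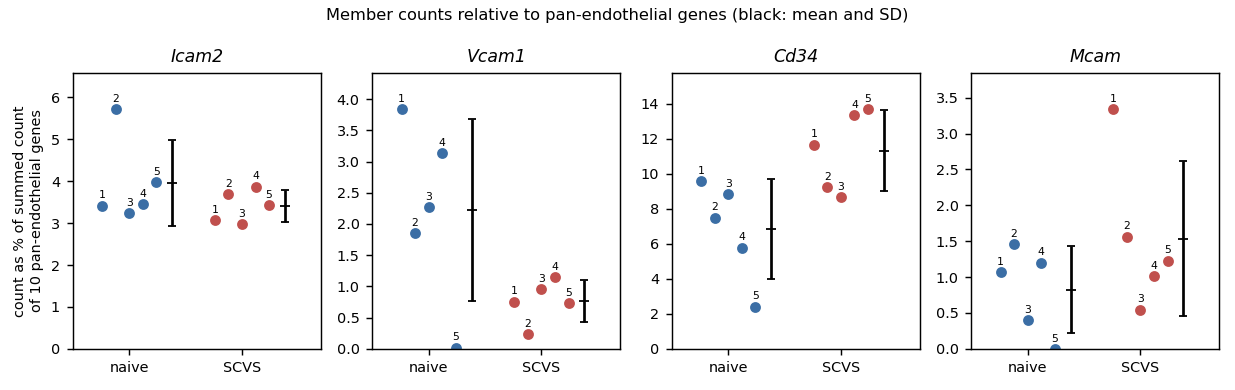
Counts of Icam2, Vcam1, Cd34 and Mcam as a percentage of the summed count of 10 pan-endothelial genes in each replicate, with the mean and SD of each group in black. Icam2 stays between 2.98% and 5.72% in all 10 replicates, naive 5 included at 3.98%, whereas Vcam1 is 0.0170% in naive 5 and 0.237% to 1.14% in SCVS.

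Icam1 (ENSMUSG00000037405, chr9:21015940-21028814, plus strand), the inducible ligand of the integrin LFA-1, was at 43.0, 87.8 and 22.4 CPM in naive 1 to 3, at 0 in naive 4 and 5, and at 26.7, 37.5, 38.7, 47.7 and 35.0 CPM in SCVS 1 to 5. The SCVS replicates lay close together and within the naive range. Means were 30.6 ± 36.6 CPM in naive and 37.1 ± 7.52 CPM in SCVS (SD, n = 5 each), with a log2 fold change of 0.24 (SE 1.52). Its sign turned without naive 5, at -0.08 (SE 1.25). Naive 4, which had 3615 counts of Icam2 and 3277 of Vcam1, had no count of Icam1.

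Icam2 (ENSMUSG00000001029, chr11:106377656-106388139, minus strand), a constitutive LFA-1 ligand of resting endothelium, was detected in every replicate. Levels were 285.7, 462.9, 341.2, 266.3 and 35.2 CPM in naive 1 to 5 and 287.4, 379.1, 148.6, 278.8 and 192.5 CPM in SCVS 1 to 5. The groups overlapped, with naive 5 far below the rest. Its share of the pan-endothelial count was 3.96% ± 1.02 in naive and 3.41% ± 0.388 in SCVS (SD, n = 5 each), and naive 5, at 3.98%, was within the range of the other naive replicates. The log2 fold change was -0.17 (SE 0.52) with all replicates and -0.45 (SE 0.30) without naive 5.

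Madcam1 (ENSMUSG00000020310, chr10:79664559-79668542, plus strand), the mucosal addressin bound by the gut-homing integrin alpha4beta7, had no count in any of the 10 replicates. At this depth a level of up to 0.213 to 0.301 CPM was not detectable, and no fold change was formed.

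Among the selectins, Sele (ENSMUSG00000026582, chr1:164039614-164058487, plus strand) encodes E-selectin, which is made by activated endothelium. It had 3 counts in naive 4, 1 count in SCVS 2 and none in the other 8 replicates, at or below the limit that a count of 0 allows in both groups. Selp (ENSMUSG00000026580, chr1:164115264-164150026, plus strand), the gene of P-selectin, which is stored in endothelial granules and in platelets, was at 9.14 CPM in naive 4 and at 0 in the other 4 naive replicates. In SCVS it was at 0, 17.2, 11.1, 47.2 and 0 CPM in replicates 1 to 5.

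Selp was thus read in 1 naive and 3 SCVS replicates, and both groups held replicates at 0. The log2 fold change was 3.06 (SE 2.71) with all replicates and 2.75 (SE 2.82) without naive 5, with an edgeR adjusted p of 1 in both. Without SCVS 4 it was 1.89 (SE 2.78). With naive 4 left out, the naive group had no count. Selp then passed the filter only through SCVS 2, 3 and 4, so no p-value is given for that fit. The libraries also held platelet and leukocyte reads. The summed level of 8 platelet markers, led by Ppbp, was 1.25, 327.6, 112.5, 148.4 and 0.0750 CPM in naive 1 to 5 and 564.7, 389.1, 280.3, 173.4 and 95.3 CPM in SCVS 1 to 5. The 11 leukocyte markers, led by Lcp1, summed to 135.1, 108.1, 45.9, 313.3 and 43.1 CPM in naive and to 247.8, 106.4, 264.3, 1142 and 451.1 CPM in SCVS. Each group's highest leukocyte sum was in the replicate with its highest Selp, naive 4 and SCVS 4. The next highest SCVS leukocyte sum, in SCVS 5, and each group's highest platelet sum, in naive 2 and SCVS 1, were in replicates with Selp at 0. Ptprc, the gene of the CD45 that the sort selected against, had at most 1 count in naive and 27, 0, 0, 113 and 404 counts in SCVS 1 to 5. The part of platelet or leukocyte RNA in the Selp level was not tested.

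Cd34 (ENSMUSG00000016494, chr1:194938821-194961292, plus strand), a sialomucin that carries L-selectin ligands on specialised vessels and marks capillary endothelium, was the most abundant member. Its level was 800.9, 606.7, 931.4, 444.4 and 21.3 CPM in naive 1 to 5 and 1095, 947.2, 430.6, 961.9 and 768.9 CPM in SCVS 1 to 5. The groups overlapped, with SCVS 3 below all naive replicates but naive 5. Means were 561.0 ± 354.2 and 840.8 ± 257.0 CPM (SD, n = 5 each), and the log2 fold change was 0.52 (SE 0.67), or 0.21 (SE 0.32) without naive 5, neither of which passed. As a share of the pan-endothelial count Cd34 was 9.58%, 7.50%, 8.83%, 5.78% and 2.41% in naive 1 to 5 and 11.7%, 9.25%, 8.64%, 13.4% and 13.7% in SCVS 1 to 5. In that share SCVS 2 and 3 overlapped the naive range and SCVS 1, 4 and 5 lay above it.

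Among the junctional and homophilic molecules, Mcam (ENSMUSG00000032135, chr9:44134658-44142727, plus strand) encodes CD146, found at the junctions of endothelial cells and on pericytes. It was at 89.1, 118.0, 41.6, 92.4 and 0 CPM in naive 1 to 5 and at 313.5, 160.2, 27.2, 72.6 and 69.0 CPM in SCVS 1 to 5. SCVS 1 and 2 were the 2 highest and the other 3 lay within the naive range. The log2 fold change was 0.85 (SE 1.14) with all replicates, 0.53 (SE 0.63) without naive 5 and 0.20 (SE 1.21) without SCVS 1. The mural sum was 7681, 1242, 770.1, 3707 and 5078 CPM in naive 1 to 5 and 1144, 5914, 3265, 3076 and 430.0 CPM in SCVS 1 to 5. The part of mural RNA in the Mcam level was not tested.

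Alcam (ENSMUSG00000022636, chr16:52248996-52453081, minus strand), the gene of CD166, which binds CD6 on T cells, was at 88.3, 25.5, 0, 22.1 and 18.6 CPM in naive 1 to 5. In SCVS 1 to 5 it was at 0.284, 28.1, 53.6, 0.831 and 24.0 CPM. Both groups held replicates under 1 CPM and replicates above 20 CPM, with naive 1 highest. The log2 fold change was -0.59 (SE 1.56) with all replicates and -0.72 (SE 1.69) without naive 5, and it was 0.38 (SE 1.73) with naive 1 left out.

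Cd99l2 (ENSMUSG00000035776, chrX:71420060-71492866, minus strand), whose product takes part in transmigration after arrest, was the most even member among naive replicates, at 47.8, 32.6, 33.8, 36.0 and 15.3 CPM. In SCVS 1 to 5 it was at 152.4, 93.1, 0, 15.3 and 1.40 CPM. SCVS replicates lay both above and below the naive range, and the log2 fold change was 0.55 (SE 1.35) with all replicates, 0.38 (SE 1.46) without naive 5 and -0.43 (SE 1.48) without SCVS 1. In naive 5, Alcam and Cd99l2 made up 20.6% and 16.9% of the summed CPM of the members, beside at most 7.08% and 7.83% in any other replicate.

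**Figure D4:**
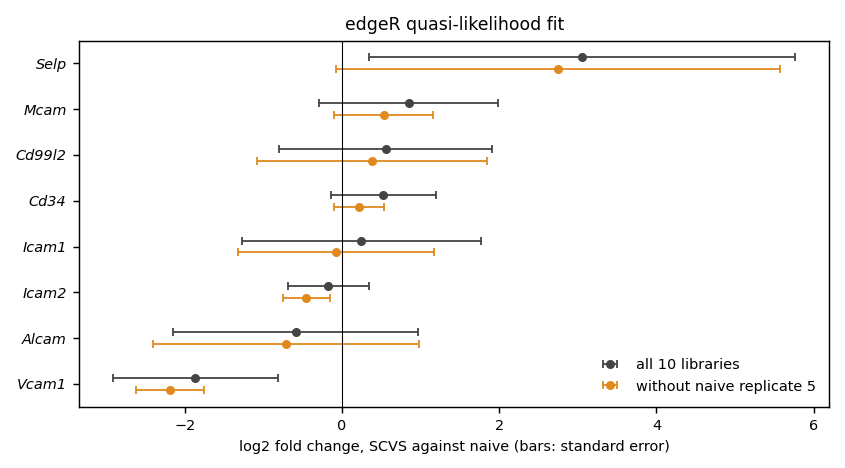
Log2 fold change of SCVS against naive for the 8 tested members, from edgeR's quasi-likelihood fit with all 10 replicates (black) and without naive 5 (orange), with bars for the standard error. Vcam1 is at -1.86 (SE 1.05) and -2.19 (SE 0.43), and Icam1 changes sign between the fits.

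Several members were read strongly in one pool and not at all in another of the same group. A count of 0 in 1 replicate beside 100 or more in another was found for 4 of the 8 tested members in naive (Icam1, Selp, Mcam and Alcam) and for 2 in SCVS (Selp and Cd99l2). Among all tested genes the share was 34.8% in naive and 32.5% in SCVS.

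Levels of different genes were compared per kilobase of exon, using merged exons of the GENCODE M1 annotation. By mean CPM per kb over the 10 replicates the order was Cd34 (267.4 ± 124.7), Icam2 (140.6 ± 63.3), Mcam (29.4 ± 26.3), Vcam1 (24.8 ± 22.4), Icam1 (13.3 ± 9.90), Cd99l2 (8.72 ± 9.58), Alcam (3.67 ± 3.83) and Selp (1.92 ± 3.39), each ± SD. The middle of the order differed between the groups. In naive, Vcam1 (38.7 ± 24.9) stood above Mcam (20.4 ± 14.1) and Icam1 (12.1 ± 14.4), and in SCVS it stood, at 10.8 ± 4.73, below Mcam (38.4 ± 34.1) and Icam1 (14.6 ± 2.96) and beside Cd99l2 (10.7 ± 13.8). By group mean Alcam exceeded Selp in naive (4.34 ± 4.71 and 0.414 ± 0.926) but not in SCVS (3.00 ± 3.11 and 3.43 ± 4.40). All these values are in CPM per kb ± SD with n = 5. The turn came from SCVS 4 alone, where Alcam was at 0.117 and Selp at 10.7 CPM per kb. In every other SCVS replicate Alcam was above Selp, as it was in 8 of the 10 replicates of both groups. Icam2 exceeded Mcam in all 10 replicates, by 2.63 ± 0.98 on the log2(CPM per kb + 1) scale (SD, n = 10). In this pooled order that was the one neighbouring pair whose difference was larger than its spread. Cd34 exceeded Icam2 in 8 of 10 replicates, by 0.73 ± 0.81, and the other 5 neighbouring pairs differed by less than 1 SD. Cd34 and Icam2 together made up 62.4% to 84.9% of the members' summed CPM over the 10 replicates.

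**Figure D5:**
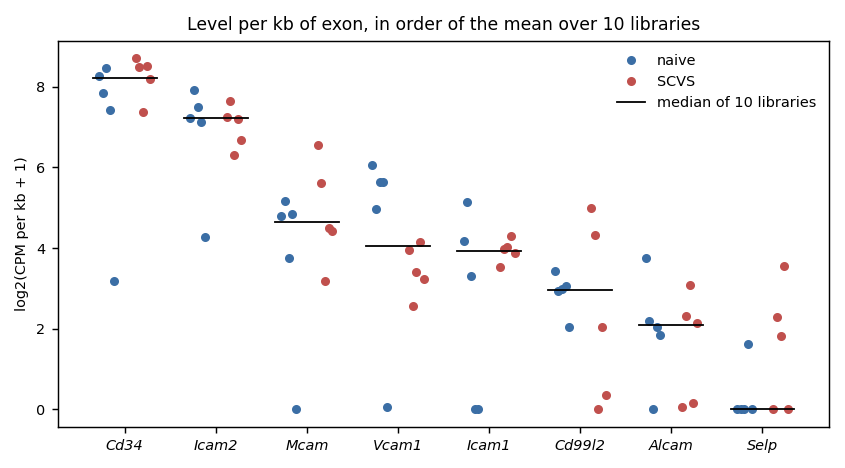
Level of the 8 tested members as log2(CPM per kb of exon + 1), in the order of their mean over 10 replicates, with each replicate as a point and a line at the median. Cd34 and Icam2 lie above the other members in all 10 replicates, and Selp has a median of 0.

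The genes whose log2(CPM + 1) was most like that of a member over the 10 replicates were found by Pearson's r among all tested genes, which share libraries and depth, and are given as a description. Icam2 went with Nid1 (r = 0.99), a basement membrane gene, and with Laptm4a (0.99) and Sparc (0.98). Cd34 went with Efna1 (0.99), Vamp3 (0.99) and Leprot (0.98), and these were 0.88, 0.80 and 0.73 without naive 5. Vcam1 went with Galnt15 (0.98), Tgtp2 (0.96) and Adgre5 (0.96), at 0.94, 0.85 and 0.82 without it. Mcam went with Cavin3 (0.97), Tax1bp3 (0.97) and Cyp2d22 (0.97), at 0.87, 0.86 and 0.83 without naive 5. Among the unevenly read members, Selp went with Slc26a6 (0.99), Shroom2 (0.98) and Ccdc120 (0.97), and Alcam with Dera (0.97), Man2a2 (0.94) and Tmem191c (0.94). Icam1 went with St6galnac4 (0.96), Rbm15 (0.94) and Rars2 (0.93), and Cd99l2 with Eepd1 (0.93), Il11ra1 (0.93) and Polr2a (0.92).

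Genes that act with the adhesion molecules were described in 6 lists, in which edgeR called no gene. Of the transmigration and junctional adhesion genes, 14 of 16 were tested, 8 with a log2 fold change above 0 and 6 below, and their median was 0.07 beside -0.03 for all genes. Without naive 5, 13 were tested, 7 above 0 and 6 below, with a median of 0.01. Bsg, the gene of basigin, was at 2730 ± 1582 CPM in naive and 1532 ± 823.3 CPM in SCVS (SD, n = 5 each), with a log2 fold change of -0.85 (SE 0.51, adjusted p = 1). It passed an unadjusted p of 0.05 in edgeR without naive 5. Esam, Pecam1 and Cd9 had log2 fold changes of -0.25 (SE 0.53), -0.12 (SE 0.67) and 0.12 (SE 0.36). Pecam1, the gene of the CD31 used for sorting, was at 21.5 CPM in naive 5 and at 536.0 to 1119 CPM in the other replicates.

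The leukocyte counter-receptors, which belong to the cell that binds, were the least abundant list. Of 12 genes 5 were tested, 3 above 0 and 2 below, with a median of 0.06, and without naive 5 there were 4, with 2 above and 2 below and a median of 0.79. Glg1, an E-selectin ligand of the Golgi that many cells express, was at 92.0 ± 52.3 CPM in naive and 91.9 ± 96.6 CPM in SCVS (SD, n = 5 each). Selplg, the gene of the P-selectin ligand PSGL-1, had no count in naive and 0, 0, 4, 489 and 305 counts in SCVS 1 to 5. Itgb7, a subunit of the MAdCAM-1 receptor, had 1, 1, 0, 3 and 0 counts in naive and 0, 48, 0, 208 and 65 counts in SCVS. Itgb7 passed the filter only through these SCVS reads, so no p-value is given for it. Its place among the genes above 0, with and without naive 5, was fixed by the filter. Most of these reads were in SCVS 4 and 5, the replicates with the highest leukocyte sums, and the part of leukocyte RNA in them was not tested.

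For the selectin ligand genes, 10 of 13 were tested, 6 above 0 and 4 below, with a median of 0.05, and without naive 5 the split was 4 and 6, with a median of -0.19. Emcn and Podxl, genes of endothelial sialomucins, had log2 fold changes of 0.01 (SE 0.48) and -0.23 (SE 0.52), and St3gal6, a sialyltransferase gene, of -0.58 (SE 0.53). St3gal6 had an unadjusted p under 0.05 in edgeR without naive 5. All 13 cytoskeletal linkers were tested, 7 above 0 and 6 below, with a median of 0.00, and without naive 5 the majority turned, to 5 above and 8 below with a median of -0.06. Rac1, Rdx, Msn and Rhoa, which tie the adhesion molecules to actin or signal from them, had fitted log2 fold changes of 0.26 (SE 0.31), 0.14 (SE 0.44), 0.59 (SE 0.51) and 0.18 (SE 0.36).

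All 20 genes of the pathways that induce adhesion molecules were tested, 13 above 0 and 7 below, with a median of 0.39, or 12 and 8 with a median of 0.16 without naive 5. Nfkbia, a target and inhibitor of NF-kappaB, was at 483.6 ± 250.2 CPM in naive and 712.8 ± 306.8 CPM in SCVS (SD, n = 5 each), with a log2 fold change of 0.52 (SE 0.50). Ifngr1 and Irf1, of the interferon-gamma pathway, had log2 fold changes of -0.05 (SE 0.49) and -0.18 (SE 0.52). Of 10 shedding proteases and their regulators 7 were tested, 5 above 0 and 2 below, with a median of 0.09. Without naive 5 both turned, to 3 above and 4 below with a median of -0.23. Timp3, an inhibitor of the proteases, and Adam10 and Adam17, which cut adhesion molecules from the cell surface, had log2 fold changes of -0.14 (SE 0.60), 0.60 (SE 0.49) and 0.09 (SE 1.17). None of these genes passed the threshold.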

How the data were processed

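The authors sorted meningeal LECs, amplified the RNA and deposited raw counts per gene for 10 replicates, with no normalization. The methods align reads to mm9, whereas the submitters' processing notes name GRCm38, with cutadapt 1.9.1, HISAT2 2.0.1, HTSeq 0.6.1 and DESeq2. Of the 55401 identifiers, 32589 (58.8%) were in the mm9 annotation GENCODE M1, and 7746 of the others had reads. Coordinates printed here are RefSeq's on GRCm38.p6. Use of strand in counting is not given in the sources used here, so reads of Selp, Cd34, Icam1, Mcam and Cd99l2 cannot be told from those of genes annotated on the opposite strand.

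Total counts ranged from 9984743 to 14094155, and CPM were formed from them. The filter kept genes read more than 5 times in 3 or more replicates, and these were tested with edgeR 4.0.16 (R 4.3.3) by the quasi-likelihood test with TMM normalization and no replicate block, with Benjamini-Hochberg adjustment over all 14815 genes and a threshold of 0.1. The SE is the size of the log2 fold change divided by the square root of F. Scripts were tested on simulated data. Alternatives were DESeq2 1.42.0, limma 3.58.1 with voom, other scalings and filters, a replicate block, the number of detected genes as covariate, and replicates left out. Added after seeing the data were fits without naive 5 (DESeq2), without naive 1 and 5, and scaled to pan-endothelial genes. Named genes were all 10 members, the 2 to 4 most abundant of each list and any past the threshold, and the 3 genes most like each tested member. Itgb7, Ptprc, Prox1, Pdpn and Slco1a4 were named after their values were seen. A gene that this rule selects is not reported here. Members and lists were chosen with earlier results of these data known.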

Additional observations from a re-analysis of the deposited data

Results flagged for a closer look

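In groups of 5 replicates, the highest or lowest value was compared with its nearest neighbour, and 6 of 38 groups held a replicate that stood apart by this measure, where chance gives about 1 in 20. That rate does not apply to the 3 groups of Selp and Sele among them, in which the other 4 replicates were at 0, so that any count in the fifth replicate would meet the measure. Selp was at 9.14 CPM in naive 4 and at 0 in the other 4 naive replicates. Alcam was at 88.3 CPM in naive 1, with 25.5 CPM in the next naive replicate. Sele was at 0.221 CPM, which is 3 counts, in naive 4 and at 0 in the other naive replicates, and at 0.0822 CPM, which is 1 count, in SCVS 2 and at 0 in the other SCVS replicates. The summed level of 9 fibroblast and arachnoid markers, led by Dcn, was 1926 CPM in SCVS 5 and at most 480.6 CPM in the other SCVS replicates. The summed level of the erythroid markers, led by Hba-a1, was 4915 CPM in SCVS 5 and at most 125.4 CPM in the others. SCVS 5 was not the highest or lowest SCVS replicate for any tested member in CPM other than Selp, which was at 0 there and in SCVS 1. The part of the foreign RNA in the adhesion molecules' levels was not tested.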

How the results depend on the processing

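The number of called genes was 0 in edgeR, also without the filter, with other scalings and with each replicate left out, and 114 in DESeq2, 123 without its Cook's filter, 2 in limma voom and 214 in DESeq2 without naive 5. The last called 1 member, Vcam1, and no other setting called any. Leaving out 1 replicate in turn, the log2 fold change ranged from -0.079 to 1.10 for Icam1, -0.45 to 0.073 for Icam2, -1.34 to 0.38 for Alcam, -0.43 to 0.88 for Cd99l2, -2.19 to -1.57 for Vcam1, 0.21 to 0.79 for Cd34, 0.20 to 1.12 for Mcam and 1.89 to 10.54 for Selp, the last with every naive replicate at 0 and so no bound. Signs also turned for Icam1 with the detected genes as covariate (-0.020) and in DESeq2 without naive 5 (-0.045), for Icam2 in limma voom (0.22) and with the replicate block (0.10), for Alcam without naive 1 and 5 (0.45), and for Cd99l2 in limma voom (-2.04), with the replicate block (-1.40) and with pan-endothelial scaling (-0.33). In limma voom Vcam1 was -0.13, Icam1 3.80 (unadjusted p 0.0588, adjusted p 0.993), Mcam 2.56 and Cd34 1.29, with the replicate block Icam1 was 2.02 and Selp 5.81, and Icam2 was at 208.9 CPM per kb by its longest transcript. The cause was not tested. Pan-endothelial scaling moved the median of all genes to -0.98, and without naive 5 to 0.34. Same-numbered replicates had correlations of -0.0169 to 0.149, so the numbers were not taken to pair them, and the replicate block left 0 called genes and 266 at an unadjusted p under 0.05. By their own number 4 of 5 naive and 3 of 5 SCVS replicates correlated best, a hint from the data only.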

Other observations

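Of the marker genes of the cell types that the sorted pools could hold, edgeR called none between naive and SCVS. The 9 lymphatic markers had 7 log2 fold changes above 0 and 2 below, with a median of 0.82, or 6 and 3 with a median of 0.57 without naive 5. Mmrn1, a multimerin of lymphatic endothelium, was at 498.8 ± 497.9 CPM in naive and 1081 ± 767.7 CPM in SCVS (SD, n = 5 each), and the hyaluronan receptor gene Lyve1 at 270.6 ± 344.0 and 233.0 ± 235.7 CPM. The 8 blood endothelial markers had 3 above 0 and 5 below, and 1 and 7 without naive 5, with medians of -0.10 and -0.40. The 2 most abundant had log2 fold changes of 0.20 (SE 0.68) for Plvap, the gene of the diaphragms of fenestrated vessels, and 0.07 (SE 0.76) for Ly6c1. Of 8 venular markers 6 were tested, 3 above 0 and 3 below, and 1 and 5 without naive 5, with medians of -0.02 and -0.23. Among them was Vwf, the von Willebrand factor gene, at -1.36 (SE 1.24), and Il6st at 0.01 (SE 0.41). Vwf had no count in naive 5.

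The 10 pan-endothelial genes had 6 log2 fold changes above 0 and 4 below, or 1 and 9 without naive 5, with Emcn at 0.01 (SE 0.48) and Egfl7 at 0.17 (SE 0.55). Of 8 mural markers 7 were tested, 1 above 0 and 6 below both with and without naive 5, with medians of -1.81 and -2.12. Rgs5 was at 3082 ± 2433 CPM in naive and 2671 ± 2152 CPM in SCVS (SD, n = 5 each). Acta2, the smooth muscle actin gene, was at 1526, 505.8, 47.9, 14.8 and 20.7 CPM in naive 1 to 5 and at 84.7, 14.1, 20.3, 1.59 and 15.1 CPM in SCVS 1 to 5, with overlapping groups and an edgeR adjusted p of 0.964. DESeq2 called Acta2 lower in SCVS, with an adjusted p of 0.060. Of 11 leukocyte markers 10 were tested, 9 above 0 and 1 below both with and without naive 5, with Lcp1 at 0.71 (SE 0.64) and Fcer1g at 2.65 (SE 1.38). DESeq2 called 1 of them, Ptprc, higher in SCVS. Ptprc passed the filter only through SCVS 1, 4 and 5, the group where it was read, so nothing is drawn from that call. Its place among the markers above 0 was fixed in the same way. Of 8 platelet markers 5 were tested and all 5 lay above 0, also without naive 5, with Ppbp at 0.98 (SE 1.38) and Pf4 at 2.26 (SE 1.42). Of 9 fibroblast and arachnoid markers 8 were tested, 4 above 0 and 4 below, or 3 and 5 without naive 5, with Dcn at 0.18 (SE 1.39) and Ptgds at 0.47 (SE 0.70). Of 8 erythroid markers 5 were tested, all above 0, and without naive 5 there were 4, all above 0. With all replicates Hba-a1 was at 5.11 (SE 1.83) and Hbb-bs at 7.35 (SE 3.11), with most of the reads in SCVS 5. Without naive 5, Hbb-bs passed the filter only through SCVS reads, which fixed its sign there.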
